A study of Homo sapiens with 3 samples.

Results

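A set of 10 genes that mark the fetal liver, the liver progenitor cell or liver cancer cells with progenitor traits were followed through RNA-seq of HepG2 cells, a human liver tumour line that the labels call hepatocellular carcinoma. The genes were AFP, GPC3, ALDH1A1, EPCAM, PEG3, SALL4, PROM1, KRT19 and SOX9, with ALB as the mature counterpart of AFP, and they were picked by gene name, as 10 rows of the 62680 in the authors' table of expected counts. Of the 10, 9 had a mean of at least 1 CPM (count per 1000000, after scaling) over the libraries and were compared among 12270 such genes in all, and PROM1 did not reach that level. Wild-type HepG2 cells were kept for 48 h with A740003 at 20 µM, with A438079 at the same 20 µM, or with PBS, and each treatment gave 1 library. The labels describe both compounds as specific antagonists of P2X7, an ATP-gated ion channel, and call PBS the control. What the compounds were dissolved in was not stated in these sources, and its effect cannot be told apart from theirs. With 1 library per treatment no difference has a replicate check, no p-value was computed, and every interval covers counting error only.

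AFP (alpha-fetoprotein) is the main plasma protein of the fetus, where yolk sac and fetal liver secrete it, and ALB (albumin) takes over that role in the mature liver. Both belong to 1 gene family and lie next to each other, and AFP is largely shut off after birth and often switched on again in liver tumours. GPC3, a cell-surface proteoglycan, SALL4, a zinc finger transcription factor of embryonic stem cells, and PEG3, an imprinted zinc finger gene expressed from the paternal copy, are likewise fetal genes that liver tumours can express. EPCAM, a cell adhesion molecule, KRT19, a keratin, and SOX9, a transcription factor, mark bile duct cells and bipotent progenitors, while PROM1 (CD133, a membrane glycoprotein) and ALDH1A1 (a retinaldehyde dehydrogenase) are used to sort tumour cells with stem-like traits.

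On GRCh38 with GENCODE release 29, ALB (ENSG00000163631) lies on chromosome 4 at 73397114 to 73421412 and AFP (ENSG00000081051) at 73431138 to 73456174, both on the plus strand with 9725 bases between the annotated ends. The promoters of AFP and ALB are shown because the mRNAs of these neighbours had nearly the same ratios between libraries, and that of ALDH1A1 because its mRNA followed the same order of libraries. RefSeq's promoter table (GRCh38.p14), which holds 250 bases before and 50 after a start, had an entry for 4 of the 10 genes, PROM1 being the other one. The 3 windows lie inside the GENCODE gene spans, not at their outer ends. Capitals mark the TATA box letters TATAAA and the CCAAT box letters CCAAT, each on either strand.
AFP, chr4:73435971-73436270, plus strand: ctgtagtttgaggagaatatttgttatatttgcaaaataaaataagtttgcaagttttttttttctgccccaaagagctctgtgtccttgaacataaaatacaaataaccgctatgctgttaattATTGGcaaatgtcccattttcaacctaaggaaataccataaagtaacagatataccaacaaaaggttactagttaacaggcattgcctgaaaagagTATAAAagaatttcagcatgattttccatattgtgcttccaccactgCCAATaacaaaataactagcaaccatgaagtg
ALB, chr4:73404037-73404336, plus strand: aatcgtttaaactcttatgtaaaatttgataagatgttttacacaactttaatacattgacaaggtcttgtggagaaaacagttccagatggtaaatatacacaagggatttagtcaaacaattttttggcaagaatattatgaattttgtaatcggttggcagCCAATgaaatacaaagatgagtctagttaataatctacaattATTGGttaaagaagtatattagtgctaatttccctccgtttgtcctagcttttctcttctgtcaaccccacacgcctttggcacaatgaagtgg
ALDH1A1, chr9:72953004-72953303, minus strand: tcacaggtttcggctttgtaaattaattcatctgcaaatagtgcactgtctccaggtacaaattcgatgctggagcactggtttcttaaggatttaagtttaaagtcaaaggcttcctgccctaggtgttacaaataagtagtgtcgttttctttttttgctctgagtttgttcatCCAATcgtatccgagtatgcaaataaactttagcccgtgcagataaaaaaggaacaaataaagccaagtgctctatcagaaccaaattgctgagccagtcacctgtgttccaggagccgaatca
Counted from the RefSeq start, TATAAA began at base -29 of the AFP promoter and was not found in the other 2 windows. Of 35116 promoters in the table, 11.5% hold these letters. CCAAT began at base 19 of AFP, at -86 of ALB and at -74 of ALDH1A1, and it was read on the opposite strand at -125 of AFP and -44 of ALB. These letters stand in 34.6% of all promoters. The letters were searched after the sequences had been read, and a match describes the letters and not a bound site.

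Total expected counts were 19735540 with A740003, 19606723 with A438079 and 19375462 with PBS, so that 1 CPM was 19.4 to 19.9 counts. Mitochondrial genes took 8.38% of counts with A740003, 9.39% with A438079 and 10.3% with PBS, the same order as several of the genes below. Leaving the mitochondrial genes out of the library totals gave AFP a log2 ratio over PBS of -0.51 with A740003 and -0.15 with A438079, against -0.49 and -0.12 with them. Genes with GC-rich transcripts were lower in both antagonist libraries than in the PBS library. Values with this trend removed are given below for some genes, and ratios printed without such values still hold the trend. In a culture, fewer cells expressing a gene and less of its RNA per cell cannot be told apart.

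The 10 genes spanned levels from among the most abundant mRNAs to near nothing. In FPKM, the authors' values per length and library size, ALB had 2930, 3547 and 3755 with A740003, A438079 and PBS and ranked 43rd, 29th and 34th of all rows. ALDH1A1 came next with 535, 616 and 671 FPKM, before AFP with 428, 543 and 598 FPKM. EPCAM had 181, 222 and 235 FPKM in the same libraries, PEG3 had 154, 148 and 124, and KRT19 had 69.4, 78.7 and 92.9. This order in FPKM was the same in all 3 libraries. By CPM per kilobase of the longest coding transcript, PEG3 stood above EPCAM with A740003 (143 against 125) but below it with A438079 (139 against 149) and PBS (115 against 158). GPC3 (20.0, 16.3 and 18.7 FPKM) and SOX9 (13.4, 14.3 and 17.6 FPKM) were close to each other, and their order depended on the length used. The counts and FPKM of GPC3 imply a length of 632, 720 and 636 nt, while its longest coding transcript is 2568 nt. Divided by annotated lengths, GPC3 had 4.87, 4.62 and 4.63 CPM per kilobase and SOX9 had 12.4, 13.5 and 16.3, which puts SOX9 above GPC3. SALL4 had 0.51, 0.43 and 1.24 FPKM, and PROM1 was lowest with 0.11, 0 and 0.08.

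**Figure D1:**
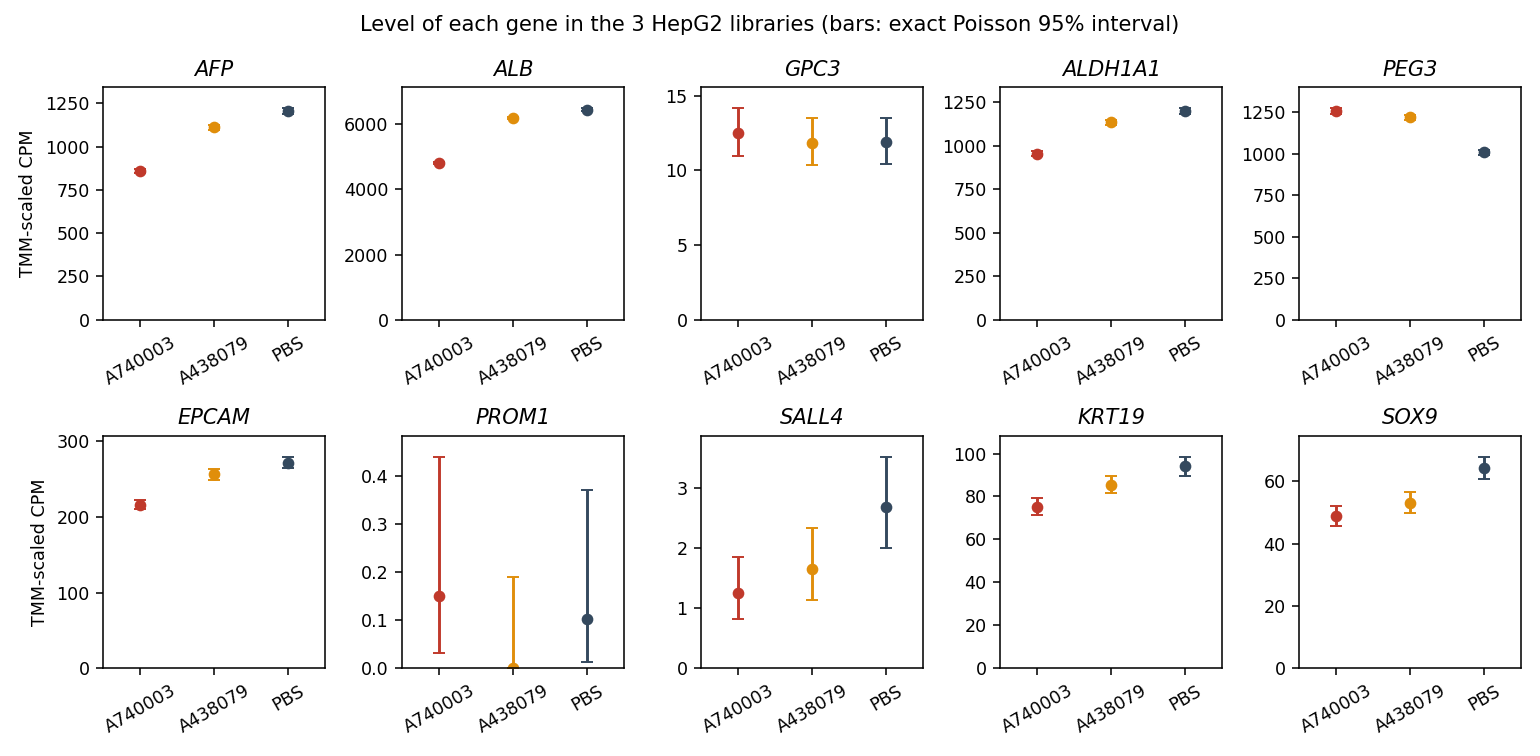
TMM-scaled CPM (y axis, from 0) of each of the 10 genes in the A740003, A438079 and PBS libraries (x axis), with exact Poisson 95% intervals as bars. AFP, ALB, ALDH1A1, EPCAM, KRT19, SOX9 and SALL4 are lowest with A740003 and highest with PBS, PEG3 is highest with A740003, GPC3 intervals overlap, and PROM1 rests on 0 to 3 counts.

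AFP and ALB were lower with A740003 than with PBS by about the same proportion, and lower by only a few percent with A438079. AFP had 17122 counts with A740003, 21567 with A438079 and 23421 with PBS, or 860, 1113 and 1206 CPM. The PBS library was thus the highest and the A740003 library the lowest, and the counting intervals of the 3 did not overlap (847 to 873, 1098 to 1127 and 1191 to 1221 CPM). For AFP the A740003 to PBS ratio was 0.713 (95% interval 0.699 to 0.727), the A438079 to PBS ratio 0.923 (0.906 to 0.940) and the A740003 to A438079 ratio 0.773 (0.757 to 0.789). ALB had 95722, 120012 and 125391 counts with A740003, A438079 and PBS, again lowest with A740003. It alone held 0.485%, 0.612% and 0.647% of all counts in these libraries. The same ratios of ALB were 0.745 (0.738 to 0.751), 0.959 (0.951 to 0.967) and 0.776 (0.770 to 0.783).

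The balance between the fetal and the mature gene differed less between A740003 and PBS than either gene did. For every 100 ALB counts there were 17.9 AFP counts with A740003, 18.0 with A438079 and 18.7 with PBS, a comparison that needs no library scaling. Against PBS, the AFP share per ALB count was 0.958-fold (0.937 to 0.978) under A740003 and 0.962-fold (0.943 to 0.982) under A438079. Between the antagonists it was 0.995 (0.974 to 1.02), and this interval includes 1. On the FPKM scale AFP relative to ALB was at a log2 value of -0.12 for A740003 over PBS, against -0.062 in counts, and the length implied for ALB was 1655 nt with A740003 and 1726 and 1723 nt with A438079 and PBS. AFM and the vitamin D-binding protein gene GC, the other albumin family genes of this cluster, did not reach 1 CPM. AFM had 6, 14 and 26 counts with A740003, A438079 and PBS, and GC had 0, 1 and 0.

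GPC3 (ENSG00000147257, chromosome X, 133535745 to 133985895, minus strand) had 249, 230 and 231 counts with A740003, A438079 and PBS. These are near-equal, and the counting intervals of the 3 libraries overlap. The A740003 to PBS ratio of GPC3 was 1.05 (0.875 to 1.26), the A438079 to PBS ratio 0.998 (0.827 to 1.20) and the A740003 to A438079 ratio 1.05 (0.877 to 1.27). A difference in GPC3 was not detectable at this depth beyond what these intervals allow. Counted against ALB, which was lower, GPC3 was 1.41-fold its PBS value (1.18 to 1.69) under A740003 and 1.04-fold (0.867 to 1.25) under A438079.

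ALDH1A1 (ENSG00000165092, chromosome 9, 72900662 to 73080442, minus strand), whose enzyme makes retinoic acid and is the basis of a common stem cell assay, had 19019, 22020 and 23318 counts with A740003, A438079 and PBS. The order of the libraries was that of AFP, at nearly the same level. Over PBS its ratio was 0.796 (0.780 to 0.811) under A740003 and 0.946 (0.929 to 0.964) under A438079. EPCAM (ENSG00000119888, chromosome 2, 47345158 to 47387601, plus strand) had 4306, 4969 and 5278 counts. The A740003 library was again the lowest, with a ratio over PBS of 0.796 (0.764 to 0.829), while A438079 stood at 0.943 times PBS (0.907 to 0.981). The ratios of A740003 to A438079 were 0.841 (0.825 to 0.857) for ALDH1A1 and 0.844 (0.810 to 0.879) for EPCAM.

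PROM1 (ENSG00000007062, chromosome 4, 15963076 to 16084378, minus strand), the gene of the stem cell surface marker CD133, had 3 counts with A740003, 0 with A438079 and 2 with PBS. All 3 libraries were at or under 3 counts, the limit that a count of 0 allows, so no ratio is given. Of the 2 surface markers of stem-like liver tumour cells in the set, EPCAM was thus well measured and PROM1 was not.

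KRT19 (ENSG00000171345, chromosome 17, 41523617 to 41528308, minus strand), the keratin of bile ducts and progenitors, had 1499 counts with A740003, 1657 with A438079 and 1825 with PBS. The libraries kept the order of AFP, and the intervals over PBS were below 1: the ratio was 0.801 (0.748 to 0.858) with A740003 and 0.910 (0.851 to 0.973) with A438079. SOX9 (ENSG00000125398, chromosome 17, 72121020 to 72126420, plus strand), which encodes the transcription factor of bile duct specification, had 970, 1029 and 1245 counts. Here both antagonist libraries were clearly under PBS and close to each other. Over PBS, the SOX9 ratio was 0.760 (0.698 to 0.827) under A740003 and 0.828 (0.762 to 0.900) under A438079. The ratio of A740003 to A438079 was 0.918 (0.840 to 1.0) with an interval that includes 1 for SOX9, and 0.881 (0.821 to 0.945) for KRT19.

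SALL4 (ENSG00000101115, chromosome 20, 51782331 to 51802520, minus strand), the embryonic stem cell factor, had 25 counts with A740003, 32 with A438079 and 52 with PBS. It was the least abundant of the 9 genes compared, at 1.26, 1.65 and 2.68 CPM, and the interval of the PBS library (2.0 to 3.51 CPM) overlapped that of A438079 (1.13 to 2.33) but not that of A740003 (0.812 to 1.85). The A740003 to PBS ratio of SALL4 was 0.469 (0.279 to 0.769), the A438079 to PBS ratio 0.617 (0.384 to 0.976) and the A740003 to A438079 ratio 0.761 (0.432 to 1.32). The antagonists' order turned round in FPKM, where the lengths implied for SALL4 were 2484, 3796 and 2164 nt with A740003, A438079 and PBS.

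PEG3 (ENSG00000198300, chromosome 19, 56810077 to 56840728, minus strand) was the one gene of the set that was higher with both antagonists. It had 25023, 23633 and 19553 counts with A740003, A438079 and PBS, so that both antagonist libraries lay above PBS and near each other. The A740003 to PBS ratio of PEG3 was 1.25 (1.23 to 1.27), the A438079 to PBS ratio 1.21 (1.19 to 1.23) and the A740003 to A438079 ratio 1.03 (1.01 to 1.05). PEG3 was the only one of the 10 with expected counts that were not whole, and it overlaps ZIM2 on the same strand. With the counts of ZIM2 added, a step chosen after the data were seen, the ratios over PBS were 1.25 (1.23 to 1.27) and 1.21 (1.19 to 1.23). PEG3 has a transcript of 8759 nt with 43.5% GC, and genes of such length and GC content were themselves higher with the antagonists, by a log2 ratio of 0.21 with A740003 and 0.14 with A438079. Against that trend PEG3 stood at log2 values of 0.11 and 0.14.

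A gene was called when it was at least 1.5-fold higher or lower and its counting interval excluded 1. By that rule 1 of the 9 genes, SALL4, was lower with A740003 and none was higher, where 10.7% of all genes compared were called lower and 3.14% higher. With A438079 SALL4 was again the 1 lower gene and none was higher, against 9.44% and 1.63% of all genes, and between the antagonists none was called, against 2.81% lower and 2.44% higher. A share of 1 in 9 is close to the share of all genes called lower over PBS. The genes were chosen with earlier results of these data known, so their shares here and medians below describe the set and are not a test. When any size was allowed and only the interval had to exclude 1, 7 of the 9 genes were lower with A740003 and 1, PEG3, was higher, against 26.7% and 26.2% of all genes. With A438079 the counts were 7 lower and 1 higher, against 23.2% and 22.9%. A740003 was under A438079 for 5 and over it for 1, PEG3, against 17.3% and 15.6%. Abundant genes have narrow intervals, so their shares are also given for the 3719 genes of at least 50 CPM, a level that 7 of the 9 reach. Of these, 26.1% were lower and 44.7% higher with A740003, 17.8% were lower and 45.5% higher with A438079, and between the antagonists A740003 was under A438079 for 27.9% and over it for 21.6%. At 1.5-fold, 1.02%, 0.592% and 0.215% of these abundant genes were lower in the 3 comparisons, and none of the 7 was. At any size, 6 of the 7 were lower with A740003 and with A438079, and 5 were lower with A740003 than with A438079. With upper quartile scaling 3 of the 9 genes, in place of 7, were lower at any size with A438079, and SALL4 was no longer called there.

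Over PBS, the 9 genes had a median log2 ratio of -0.33 under A740003 and -0.084 under A438079, against 0.00097 and -0.0036 for all genes compared. Between the antagonists the median was -0.25, against -0.0036. With no interval asked, 7 of the 9 were below PBS with A740003, against 49.8% of all genes, and 8 with A438079, against 50.5%. Both comparisons over PBS share the PBS library, so their values stand side by side and are not separate evidence. The 7 genes AFP, ALB, ALDH1A1, EPCAM, SALL4, KRT19 and SOX9 were lowest with A740003, in the middle with A438079 and highest with PBS, an order that 24.5% of all genes and 20.8% of genes of at least 50 CPM had. For 5 of the 7 (all but SALL4 and SOX9) the intervals of both steps excluded 1, which held for 5.09% of all genes and 6.78% of those of at least 50 CPM. With upper quartile scaling only AFP and ALDH1A1 of the 5 kept both steps, and KRT19 lost the step from A438079 to PBS once the GC and length trend was taken off. PEG3 had the opposite order, as did 23.3% of all genes. The compounds were compared at the same dose and time, among 3 pairs of libraries and 9 genes with no p-value. AFP, ALB, ALDH1A1 and EPCAM were between 15.6% and 22.7% lower with A740003 than with A438079. KRT19 was 11.9% lower and PEG3 was 3.08% higher, also with intervals that exclude 1. For GPC3, SALL4 and SOX9 the intervals of this difference included 1, which does not show that the compounds act alike.

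**Figure D2:**
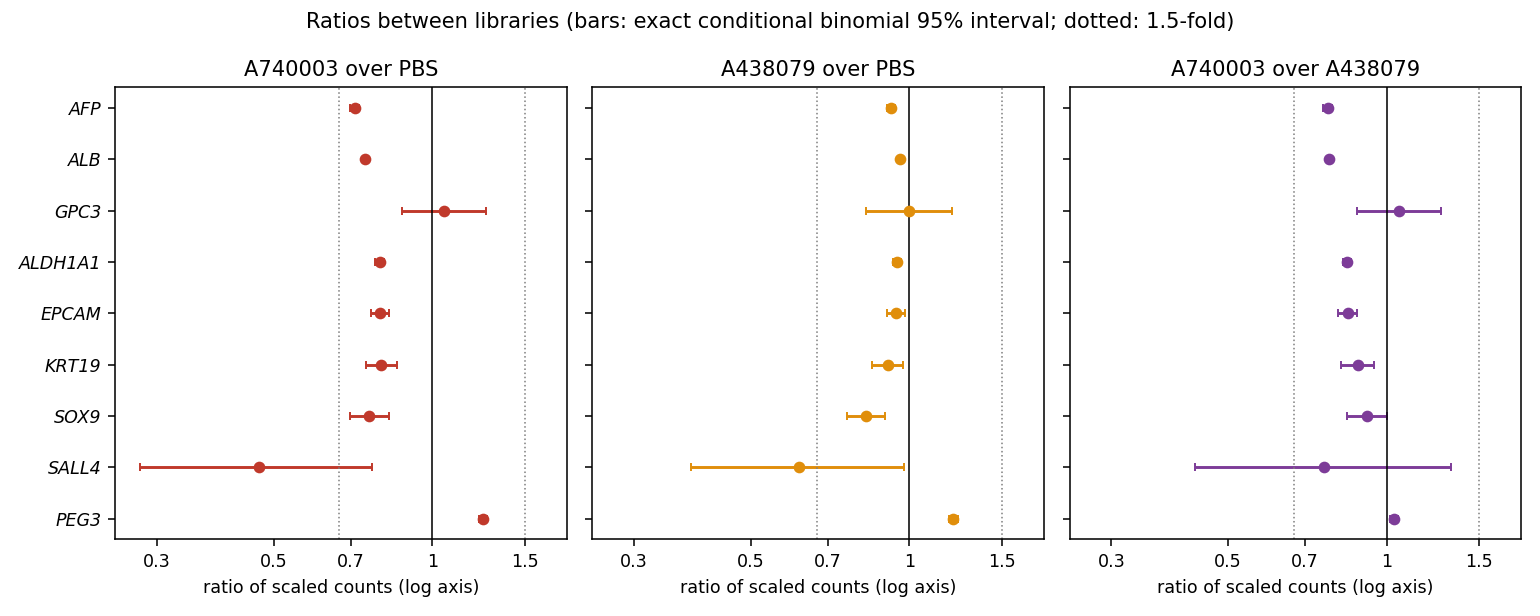
Ratio of scaled counts (x axis, log scale) of the 9 genes compared, for A740003 over PBS, A438079 over PBS and A740003 over A438079, with exact conditional binomial 95% intervals as bars and dotted lines at 1.5-fold. With A740003 over PBS, 6 genes lie between 0.713 and 0.801, SALL4 lies at 0.469 and PEG3 at 1.25, and with A438079 the same 6 lie between 0.828 and 0.959.

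Set against ALB within each library, ALDH1A1, EPCAM and KRT19 stood slightly higher with A740003 than with PBS, at 1.07-fold (1.05 to 1.09), 1.07-fold (1.03 to 1.11) and 1.08-fold (1.0 to 1.15). For SOX9 this ratio was 1.02 (0.938 to 1.11), with an interval that includes 1. PEG3 counts per 100 ALB counts were 26.1 with A740003, 19.7 with A438079 and 15.6 with PBS, which is 1.68-fold (1.64 to 1.71) and 1.26-fold (1.24 to 1.29) the PBS value. SOX9 was lower relative to ALB with A438079, at 0.864-fold (0.795 to 0.938), and SALL4 was at 0.630-fold (0.391 to 1.01) under A740003 and 0.643-fold (0.414 to 0.999) under A438079.

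The transcripts of AFP, ALB and ALDH1A1 are poor in GC, with 38.8%, 41.3% and 41.9%, against a median of 47.8% over the genes compared. Genes of such GC content had median log2 ratios over PBS just above 0. The bin of all genes centred on 39.7% GC stood at 0.11 with A740003 and 0.11 with A438079. That centred on 41.8% stood at 0.095 and 0.10. The trend in GC content and length together was smaller for AFP, ALB and ALDH1A1, at 0.022, 0.039 and 0.023 with A740003. With A438079 it was 0.058, 0.041 and 0.030. AFP, ALB and ALDH1A1 thus lay below the trend of genes like them, and after taking off the trend in GC content and length their log2 ratios over PBS were -0.51, -0.46 and -0.35 with A740003 and -0.17, -0.10 and -0.11 with A438079. KRT19, the most GC-rich of the set at 61.8%, has a short transcript of 1390 nt and was at -0.32 with A740003 and -0.0058 with A438079 after the same step, against -0.32 and -0.14 before it. SOX9 stood at -0.34 and -0.23, EPCAM at -0.31 and -0.084, and SALL4 at -1.08 and -0.66 after it. The median of the 9 genes was -0.34 with A740003 and -0.10 with A438079 once the trend was removed.

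**Figure D3:**
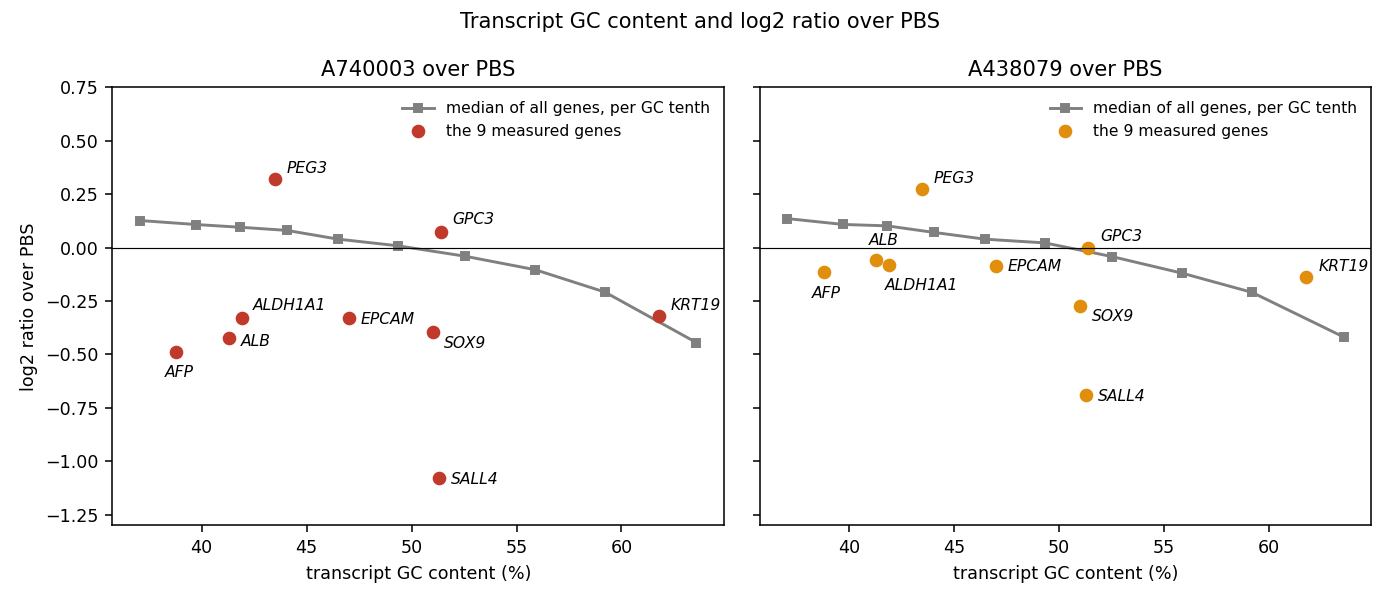
Log2 ratio over PBS (y axis) against transcript GC content in percent (x axis), for A740003 and A438079. Coloured points are the 9 genes compared and grey squares the medians of all genes compared in 10 bins of GC content, which run from 0.13 to -0.44 with A740003 and from 0.14 to -0.42 with A438079. AFP, ALB and ALDH1A1 lie under the grey line at its GC-poor end in both panels.

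Genes around the set were described as lists, some of which hold members of the set. Named outside the naming rule, after their values were seen, were AFM and GC above, and below SNURF, GATA4, GATA6, HNF4A, LGR5, GPC1, GPC4, SOX13, TSPAN8, APOB, HBA1 and the genes given at 0 counts. The counts in these lists stand beside 10.7% of all genes called lower and 3.14% higher with A740003, and 9.44% and 1.63% with A438079. Of 14 other oncofetal genes, 11 were measured, and 2 were called lower and none higher with A740003 (median log2 ratio -0.17), while 1 was lower and none higher with A438079 (-0.15). IGF2, the fetal growth factor gene, had 987, 1990 and 5651 counts with A740003, A438079 and PBS, the widest gap of the list. Over PBS its ratio was 0.170 (0.159 to 0.182) under A740003 and 0.353 (0.335 to 0.371) under A438079. Its log2 ratios of -2.55 and -1.50 became -1.63 and -0.83 once the GC and length trend was taken off. PEG10, an imprinted gene derived from a retrotransposon, stood at 0.615 times PBS with A740003 and 0.798 times with A438079. IGF2BP1, a fetal RNA-binding protein gene, stood at 0.761 and 0.872 times. Among 16 paternally expressed imprinted genes, 10 were measured, with 3 (IGF2, PEG10 and SNURF) lower and none higher with A740003 (median -0.19) and 1 (IGF2) lower and none higher with A438079 (-0.18). SNURF, at 10 counts with A740003, 22 with A438079 and 32 with PBS, reached a mean of 1 CPM only with its PBS count. PEG3 was above PBS while IGF2, PEG10 and SNRPN, a splicing protein gene at 0.815 and 0.853 times PBS, were below it.

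Of 16 transcription factor genes that act on AFP or ALB, 14 were measured and 12 lay below PBS with A740003, against 49.8% of all genes, and 11 with A438079, against 50.5%. In all, 4 were called lower and none higher in each antagonist library, where 10.7% and 9.44% of all genes were lower, with medians of -0.36 and -0.26. The 4 were FOXA1, CEBPA, GATA4 and GATA6. FOXA1, a pioneer factor of liver development, had 319, 377 and 654 counts with A740003, A438079 and PBS and had ratios over PBS of 0.476 (0.415 to 0.545) under A740003 and 0.578 (0.507 to 0.657) under A438079. CEBPA, a hepatocyte factor with a GC-rich transcript, stood at 0.605 and 0.641 times PBS, and at log2 values of -0.17 and -0.13 after the GC and length step, which is under 1.5-fold. GATA4 had 46, 56 and 143 counts and GATA6 had 50, 67 and 142, and after that step the log2 ratios of GATA4 were -1.10 and -0.79, against -1.66 and -1.34 before it. HNF4A, with most counts of the list, had ratios over PBS with intervals of 0.959 to 1.05 under A740003 and 0.973 to 1.06 under A438079.

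Of 20 other progenitor or stem-like markers 12 were measured, and 1, SOX12, was called lower and none higher in each antagonist library, with medians of -0.099 and -0.14. SOX12 had 91, 152 and 372 counts with A740003, A438079 and PBS, and its log2 ratios of -2.06 and -1.29 became -1.19 and -0.64 with the GC and length trend taken off. LGR5, with most counts of the list, had 3523, 3224 and 2697 counts in the same libraries. Its ratios over PBS were 1.27 (1.21 to 1.34) under A740003 and 1.20 (1.14 to 1.26) under A438079. The log2 ratios of LGR5, 0.35 and 0.26, became 0.18 and 0.13 with that trend taken off. ANPEP (CD13) stood at 0.760 and 0.708 times PBS and CDH1 (E-cadherin) at 1.22 and 1.35 times with A740003 and A438079. CD44, KIT, NCAM1 and KRT7 were at 0 counts in all 3 libraries. Of 7 pluripotency genes that work with SALL4, 2 were measured and none was called. LIN28B, which blocks maturation of let-7 microRNAs, stood at 1.07 and 1.16 times PBS. The log2 ratios of LIN28B, 0.096 and 0.21, became -0.10 and 0.032 with the GC and length trend taken off.

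Close relatives of the members did not all move with them. Of 4 SALL genes, 3 were measured and SALL4 was the 1 lower gene in each antagonist library (medians -0.50 and -0.37), while SALL1 stood at 1.11 and 1.09 times PBS with intervals that include 1. Among the 6 glypican genes GPC4, which did not reach 1 CPM, had 23, 5 and 7 counts with A740003, A438079 and PBS. Its ratio over PBS was 3.20 (1.33 to 8.84) under A740003 and 0.716 (0.179 to 2.62) under A438079. Of the 6, 3 were measured, and GPC1 was called lower in each antagonist library (13, 26 and 51 counts with A740003, A438079 and PBS). Like SNURF, GPC1 reached a mean of 1 CPM only with its PBS count. With the GC and length trend taken off, the log2 ratios of GPC1 were -0.96 and -0.15, so that its call with A438079 was lost. GPC6 stood at 0.992 and 1.13 times PBS, and at log2 values of -0.22 and 0.014 with the trend taken off. The list medians, with the trend left in, were -0.012 and -0.0035. None of the 5 measured genes among 8 aldehyde dehydrogenases was called (medians -0.056 and 0.069), and ALDH2, the mitochondrial enzyme of ethanol breakdown, stood at 1.19 and 1.11 times PBS. All 4 measured keratins of 7 were below PBS in both antagonist libraries (medians -0.39 and -0.30), with KRT23 called lower with A740003 at 0.430 times and KRT8 and KRT18 at 0.748 and 0.781 times. Of 11 SOX genes 5 were measured, with 1 lower with A740003 (SOX12) and 2 lower with A438079 (SOX12 and SOX13), against 10.7% and 9.44% of all genes, and medians of -0.40 and -0.27. SOX13 was at -0.69 on the log2 scale with A438079 and at -0.41 without the trend, which ends its call.

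Mature hepatocyte genes stood near PBS as a list. Of 26 with a row, 21 were measured, 1 was called higher and 1 lower with A740003 and none with A438079, and the medians were -0.0094 and 0.057. TTR, the thyroxine carrier gene, had 149, 115 and 88 counts with A740003, A438079 and PBS, and HPD, a tyrosine breakdown enzyme gene, stood at 0.645 times PBS with A740003. APOH, a plasma glycoprotein gene, was lower like ALB, at 0.712 and 0.889 times PBS. APOB, with most counts of the list, had ratios over PBS of 1.39 (1.38 to 1.40) under A740003 and 1.32 (1.31 to 1.33) under A438079. The log2 ratios of APOB, 0.47 and 0.40, became 0.29 and 0.27 with the GC and length trend taken off. Among 14 bile duct cell markers, which include EPCAM, KRT19 and SOX9, 9 were measured and 8 of the 9, these 3 included, lay below PBS in each antagonist library, against 49.8% and 50.5% of all genes (medians -0.32 and -0.14). TSPAN8 was the 1 called, lower with A740003 at a log2 ratio of -0.58 that became -0.52, under 1.5-fold, without the trend, while KRT7, CFTR, MUC1 and AQP1 were at 0 counts. Markers of other cell types were few: 8 mesenchymal genes summed to 19.3 to 22.1 CPM, nearly all of it ACTA2, and COL1A1, COL1A2, COL3A1, LUM and DCN were at 0. The 5 endothelial genes with a row were at 0, and 7 blood cell genes summed to 31.9 to 39.5 CPM, nearly all CD68, with PTPRC, CD3E and HBB at 0 and HBA1 at 0, 0 and 12 counts with A740003, A438079 and PBS.

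**Figure D4:**
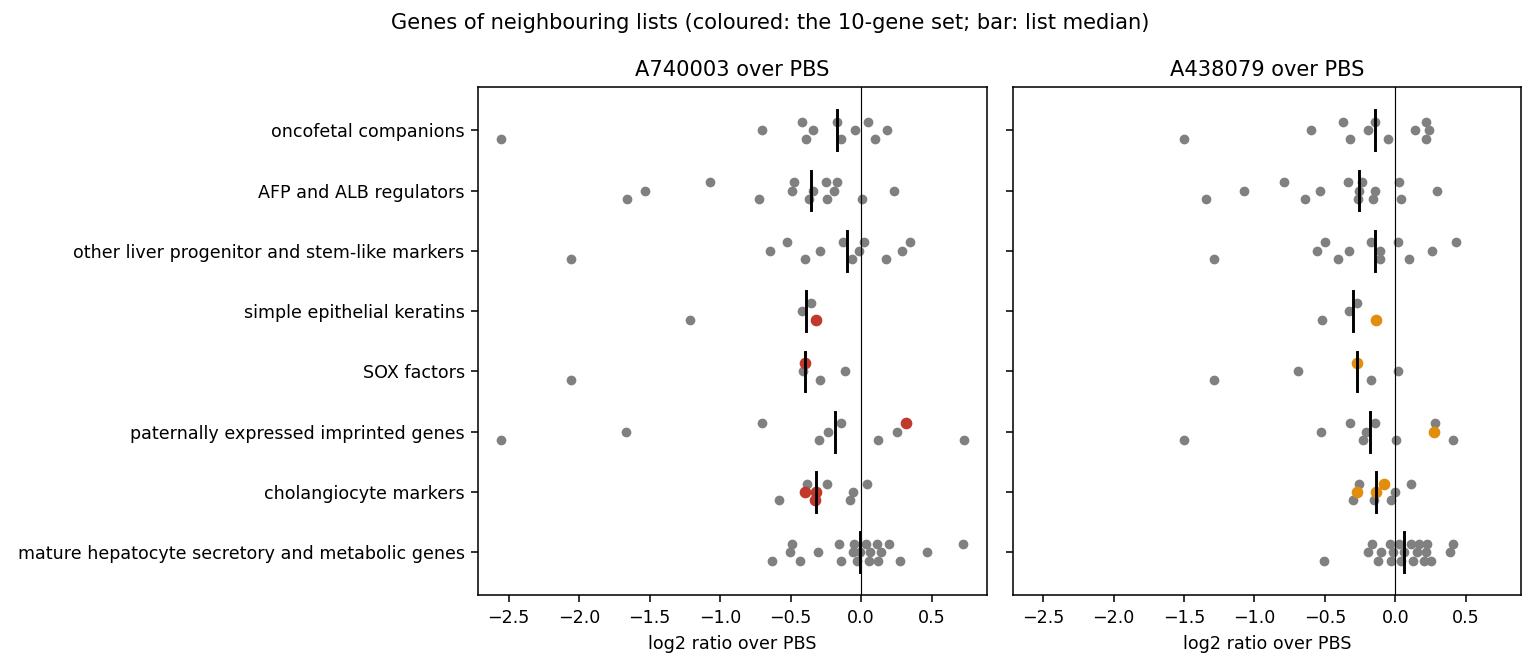
Log2 ratio over PBS (x axis) of the measured genes in 8 of the lists (rows), with A740003 on the left and A438079 on the right. Each point is a gene, coloured points belong to the 10-gene set, and black bars are list medians, which lie at -0.36 and -0.26 for the AFP and ALB regulators and at -0.0094 and 0.057 for the mature hepatocyte genes.

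The genes whose pair of log2 ratios over PBS lay nearest to that of AFP over the 3 libraries, among 3699 other named genes of at least 50 CPM, were TACO1, GTF3A, MT-ATP6, PGM1 and GNAS, at distances of 0.011 to 0.048. MT-ATP6, a mitochondrial ATP synthase gene, had 60432, 75193 and 82368 counts with A740003, A438079 and PBS. ALB was the 17th nearest, EPCAM the 66th, ALDH1A1 the 68th, KRT19 the 75th and SOX9 the 86th, while PEG3 was the 3352nd. With 3 libraries such likeness rests on 2 ratios per gene that share the PBS library.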

How the data were processed

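The 10 genes and all lists were chosen with earlier results of these data known. RNA was extracted with an RNeasy kit and libraries were built with a SMARTer mRNA-seq kit, per the labels' protocols. The authors deposited expected counts per gene (33.3% to 35.1% of the values above 0 not whole, at a tolerance of 0.005) and FPKM values, which the authors scaled for gene length and library size. Aligner, counter, annotation and strand setting were not given in the sources used here. Overlapping and antisense genes are therefore uncertain. The submitters' processing notes name GRCm38, a mouse build, although the rows are human genes. The coordinates, transcript lengths and GC contents printed come from GENCODE release 29 by gene identifier, for 11906 of 12270 genes (97.0%).

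Before use, fractional values were rounded to integers. Library sizes were then scaled by TMM in edgeR 4.0.16 (R 4.3.3), and 116 rows without an Ensembl identifier, holding 0.0775% to 0.0853% of counts, stayed in. Ratios carry exact conditional binomial (Clopper-Pearson) 95% intervals, ratios relative to ALB carry delta-method intervals, log2 ratios use a pseudocount of 0.5 counts, and all intervals cover counting error only. The GC and length trend was the median log2 ratio of the 201 genes nearest in rank of both. Genes beyond the 10 were named by a rule: in each list, up to 3 of 5 CPM or more that differed most from PBS, and the 5 genes nearest to AFP. Some genes are not reported here by name. Alternatives were other scalings (size factors of DESeq2 1.42.0, upper quartile, total counts), filters, folds, FPKM, unrounded counts and the trend step.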

Additional observations from a re-analysis of the deposited data

How the results depend on the processing

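Single-gene log2 ratios kept their direction under the alternatives run wherever the counting interval had excluded 1, except that PEG3 between the antagonists came to a log2 ratio of 0 once the GC and length trend was taken off, and 0 genes were then higher there. Upper quartile scaling, which moved the median of all genes by 0.057 with A740003 and 0.050 with A438079, gave a median of -0.27 for A740003 over PBS, 0 genes called lower with A438079 and 3 in place of 7 genes lower at any size with A438079, and 2 in place of 5 with both steps from A740003 to PBS. A minimum of 5 CPM, which drops SALL4, left 0 genes called lower with A740003 and 0 with A438079, and a 2-fold rule left 0 with A438079. FPKM with pseudocounts of 0.1 and 1 gave medians of -0.38 and -0.37 for A740003 over PBS and of -0.18 and -0.18 for A740003 over A438079. AFP relative to ALB was then -0.12 and -0.12 for A740003 over PBS and -0.067 and -0.067 for A740003 over A438079, and with a pseudocount of 1 there were 0 genes called lower with A740003. The order from A740003 to PBS held for 7 genes under every scaling and 6 in FPKM or at 5 CPM. The median for A438079 over PBS, -0.084 in the main setting, was -0.035 with upper quartile scaling and -0.14 in FPKM. Those values lie beyond 1.5 times, and a median carries no interval of its own. Apart from them, the rest of the other 166 values of counts, medians and AFP relative to ALB stayed within 1.5 times or their interval. FPKM carries no counts, so the any-size rule was not run on it. Depth limits SALL4 and PROM1. With 1 library per treatment none could be left out. No paired analysis was possible because each treatment has 1 library and no replicate numbers.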
